A study of Mus musculus with 40 samples.

Results

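The ovary was profiled in mice that lost Mdm2, the ubiquitin ligase that holds the transcription factor p53 at a low level. The libraries were chosen by their tissue label, which put 8 of the 40 libraries of the study in the ovary. Of these, 5 came from FMTg mice (Mdm2FM/- Cag-CreERTg), in which the remaining Mdm2 allele is removed by a Cre recombinase driven by the ubiquitous Cag promoter, and 3 came from Tg mice (Mdm2+/- Cag-CreERTg). All 8 mice carried the Cre transgene and 1 working copy of Mdm2 before activation, so that the Tg mice are heterozygous and not wild type. The mice were C57BL/6j and 60 days old, the tissue was taken 24 hours after acute p53 activation, and each library came from 1 mouse. The labels give neither the stage of the estrous cycle nor the agent that activated the Cre nor which exons of Mdm2 are removed. RNA was total RNA of the whole tissue, so fewer cells of a type and less RNA per cell cannot be told apart.

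When Mdm2 is lost, p53 is no longer degraded and switches on genes that stop the cell cycle, start apoptosis, repair DNA and feed back on p53 itself. The ovary is a mixture of cells with separate programmes. Granulosa cells surround each oocyte in a follicle and theca cells around them supply androgens. After ovulation the follicle becomes a corpus luteum, whose luteal cells turn cholesterol into progesterone until prostaglandin F2-alpha ends its life.

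The p53 response element is a pair of half-sites of 10 bases each, and these sequences show it in the start-site windows of 2 of the genes described below. The windows come from the RefSeq table for build GRCm38.p6, run 5′ to 3′ on the plus strand from 250 bases before to 50 bases after a start site, and carry the element in capitals.
Gtse1, chr15:85859696-85859995: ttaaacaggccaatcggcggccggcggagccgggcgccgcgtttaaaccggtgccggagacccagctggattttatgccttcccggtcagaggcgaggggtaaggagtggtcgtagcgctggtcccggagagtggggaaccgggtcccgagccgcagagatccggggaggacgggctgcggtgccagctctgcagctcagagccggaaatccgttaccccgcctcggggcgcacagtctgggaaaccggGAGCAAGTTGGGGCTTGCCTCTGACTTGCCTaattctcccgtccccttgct
Cdkn1a, chr17:29090729-29091028: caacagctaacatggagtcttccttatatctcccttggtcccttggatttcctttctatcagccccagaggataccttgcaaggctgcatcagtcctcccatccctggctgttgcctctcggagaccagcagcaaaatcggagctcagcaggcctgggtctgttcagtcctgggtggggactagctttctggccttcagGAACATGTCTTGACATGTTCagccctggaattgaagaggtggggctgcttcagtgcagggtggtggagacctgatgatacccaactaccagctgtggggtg
The search used both strands, since the element reads as its own reverse complement, kept the central 4 bases of each half-site intact, and allowed a gap of at most 1 base and 1 mismatch. The Cdkn1a element begins 51 bases before the start site of its window, and the Gtse1 run of capitals holds 2 overlapping elements that share a half-site. The first of these begins 1 base before the start site and the other at base 10 of the transcript, counted from 1. By these rules 28 of 27025 genes with a window held an element, which is 0.104%, as did 2 of the 57 listed p53 targets with a window. The 27025 genes had 32851 windows, as some have more than 1 start site, and the distances above hold for the windows shown. A match is a description of the letters, and a window without one may have an element elsewhere.

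The deposited expression values are on a log2 scale with stabilised variance, and the reads behind them were recovered from it. Per-library values below are normalised reads, which are reads divided by the size factor of the library, in the order of replicates 1 to 5 for FMTg and 1 to 3 for Tg. Depth was 8.97 to 23.0 M reads per library, and 16486 genes were tested with limma. No gene passed an adjusted p of 0.05, which is 0% in both directions (smallest adjusted p = 0.183, limma with Benjamini-Hochberg adjustment). At an unadjusted p below 0.05, 1049 genes stood out, 730 with higher FMTg means (4.43% of genes tested) and 319 with lower ones (1.93%). The limma fit on precision-weighted log counts (voom) also called 0, with 907 at an unadjusted p below 0.05. With libraries weighted by their scatter 17 genes passed, and in 1 model of the 40 libraries of all tissues 69 did, with 4 in both sets. That model of 40 has a single spread per gene over all tissues, so its p values do not measure the spread among the ovaries. The library weights were 1.76, 3.685, 0.538, 0.395 and 0.282 in FMTg ovaries, against 0.552, 2.089 and 2.239 in Tg ovaries, so FMTg 2 counted most. Named genes that passed with library weights were Eda2r, Zfp365, Gtse1, Psrc1, Lpin1, Ano3 and H1f0, all higher in FMTg ovaries, and Ptgfr, Gm2a, Entpd1 and Sfrp4, all lower (limma adjusted p of 0.0294 to 0.0443). Those that passed in the model of 40 were Eda2r, Gtse1, Psrc1, Ercc5, Cidec, Mki67, Hist1h1e, Smc1a, Tpr, Scaf11, Rrp1, Bod1l, Apc and Ctcf, all higher, and Megf10, lower (limma adjusted p of 0.000197 to 0.047). Hist1h1c, Hist1h1d and Inka2, also named below, passed in that model too, all higher (limma adjusted p of 0.0129 to 0.0453). The groups did not overlap for 565 genes with higher FMTg values (3.43% of genes tested) and 392 with lower ones (2.38%). The median log2 difference over all genes tested was -0.02, and 47.1% of genes had a higher FMTg mean. Differences below are FMTg minus Tg on the log2 scale, each with its limma standard error, and those of single genes are descriptions of these 8 libraries.

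Libraries of both groups held reads of genes that mark other organs, and how these reads came to be there was not tested. A list of 32 pancreatic acinar genes, 31 of them in the table, took 0.0891%, 2.61%, 6.17%, 0.00861% and 0.00302% of reads in FMTg ovaries, against 28.8%, 0.562% and 0.149% in Tg ovaries. In the pancreas libraries of the study these genes took 42.6% to 71.7% of reads. Ctrb1, a chymotrypsinogen, had 1233, 39537, 96313, 124 and 10.8 normalised reads in FMTg ovaries, against 660232, 8629 and 2473 in Tg ovaries. Intestinal epithelium genes took 1.43% of reads in FMTg 3, 0.00669% to 0.0258% in the other FMTg ovaries and 0.00219% to 0.110% in the Tg ovaries, and 2.15% to 4.55% in the small intestine libraries of the study. Kidney epithelium genes reached 0.0682% in FMTg 3 and 0.0423% in Tg 1, and heart muscle genes 0.134% in FMTg 1 and 0.286% in Tg 3. Their shares were 1.46% to 3.38% in the kidney libraries and 4.71% to 9.86% in the heart libraries. Fat was uneven too. Adipocyte genes took 0.134%, 0.140%, 0.0832%, 0.574% and 0.724% of reads in FMTg ovaries, against 0.0321%, 0.0437% and 0.0645% in Tg ovaries, with no overlap. FMTg 4 and FMTg 5 also had the most genes without a read, 1572 and 2125, against 694 to 924 in the other FMTg ovaries and 939 to 1063 in Tg ovaries. The FMTg libraries numbered 4 and 5 also had the most in every other tissue, though they came from other mice. The numbers were 6020 and 4087 in pancreas, 2325 and 2346 in kidney, 2770 and 2548 in heart, and 2666 and 2314 in small intestine. No Tg library bears those replicate numbers, and what sets these libraries apart was not tested. The first principal component held 48.7% of the variance, with Tg 1 and FMTg 3 at one end and FMTg 4 and FMTg 5 at the other. The part of these reads in the results below was not tested. Values without these libraries are given beside some of the results.

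**Figure D1:**
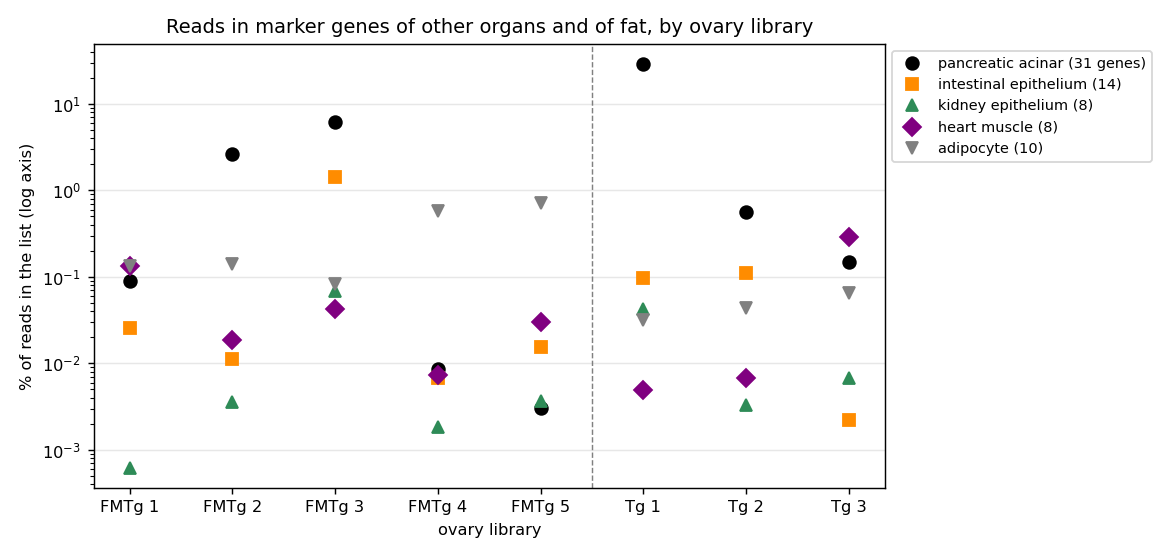
The share of each ovary library's reads (percent, log axis) in 5 marker lists, with FMTg libraries left of the dashed line and Tg libraries right of it. Acinar genes reach 28.8% in Tg 1 and 6.17% in FMTg 3, intestinal genes 1.43% in FMTg 3, and adipocyte genes 0.574% and 0.724% in FMTg 4 and FMTg 5.

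The ovarian markers were present in every library. Foxl2, a granulosa transcription factor, had 298, 321, 133, 265 and 281 normalised reads in FMTg ovaries, against 187, 307 and 228 in Tg ovaries. Gdf9, an oocyte growth factor, had 570.5, 327, 161, 406 and 451 normalised reads in FMTg ovaries, against 92.9, 368 and 263 in Tg ovaries. Tg 1, the library richest in acinar reads, had the lowest Gdf9 value, and FMTg 3 the lowest Foxl2 value.

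Mdm2 (chr10:117688875-117710758, GRCm38, minus strand) had 1292, 2016, 2222, 1239 and 1213 normalised reads in FMTg ovaries, against 977, 799 and 944 in Tg ovaries. The FMTg values lay above the Tg values without overlap, with means of 1596 ± 483 in FMTg ovaries and 907 ± 94.7 in Tg ovaries (SD, n = 5 and 3). The log2 difference was 0.77 ± 0.23 and missed the threshold when adjusted over all genes (limma adjusted p = 0.515). Taken alone, the two-sided exact permutation test, with 56 ways to place 8 libraries in groups of 5 and 3, gave p = 0.0536, where 0.0179 is the smallest it can give. Mdm2 is itself switched on by p53, and reads are counted over the whole gene, so its total does not check the deletion. Trp53, which encodes p53, had 448, 523, 386, 548 and 602 normalised reads in FMTg ovaries, against 481, 517 and 506 in Tg ovaries. Those values overlapped, with a difference of -0.02 ± 0.16.

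Across 5 lists of p53 targets, 14 of 69 genes tested (20.3%) had FMTg values above all Tg values, against 3.43% of all genes, and 0 had values below all Tg values. Their median difference was 0.30 and 46 of 69 had a higher FMTg mean, against 47.1% of all genes. At an unadjusted p below 0.05, 22 were higher and 0 lower, against 4.43% and 1.93% of all genes. Without Tg 1, FMTg 3, both of these, or FMTg 4 and FMTg 5, 19 to 21 were higher, where 2.35%, 5.77%, 3.24% and 3.85% of all genes were. These lists were chosen with earlier results of these data known, so their counts are a description. Among the 10 named genes with the smallest p and higher FMTg values, 4 were members of these lists, Eda2r, Zfp365, Gtse1 and Psrc1.

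The arrest list had 15 genes, of which 5 lay above all Tg values and 0 below, against 3.43% and 2.38% of all genes. Its median difference was 0.41, and 0.22 without Tg 1 and FMTg 3. Zfp365 (chr10:67886103-67912662), a zinc finger gene whose human counterpart helps to keep the genome stable, had 91.9, 188, 175, 181 and 133 normalised reads in FMTg ovaries, against 25.1, 25.6 and 28.4 in Tg ovaries. Its 5 FMTg values were all above 90 normalised reads, and the difference was 2.26 ± 0.28 (limma adjusted p = 0.183). Gtse1 (chr15:85859745-85876573), a microtubule-binding protein of G2 and S phase that binds p53, had 255, 367, 519, 299 and 217 normalised reads in FMTg ovaries, against 75.3, 90.4 and 69.4 in Tg ovaries. The difference was 1.94 ± 0.28 (limma adjusted p = 0.246), with FMTg 3 highest. Psrc1 (chr3:108383839-108388231), a spindle microtubule protein, had 204, 276, 320.1, 175 and 172 normalised reads in FMTg ovaries, against 61.5, 71.98 and 57.7 in Tg ovaries. Its groups stood apart as well, by 1.72 ± 0.26 (limma adjusted p = 0.246).

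Sesn2, a leucine sensor that restrains mTORC1, had 369, 529.5, 603, 555 and 509 normalised reads in FMTg ovaries, against 284, 226 and 244 in Tg ovaries, a difference of 1.00 ± 0.18. Pidd1, the scaffold that activates caspase-2, had 165, 232, 216, 113 and 76.4 normalised reads in FMTg ovaries, against 74.1, 55.2 and 68.6 in Tg ovaries. Its lowest FMTg value lay just above the highest Tg value, and the difference was 1.12 ± 0.37. Cdkn1a, the p21 inhibitor of cyclin-dependent kinases, had 500.2, 1090.0, 1609.7, 1505 and 1455 normalised reads in FMTg ovaries, against 1055, 342 and 376 in Tg ovaries. Tg 1 lay within the FMTg range, so the groups overlapped, and FMTg 1 was below Tg 1. The difference was 1.14 ± 0.47 with all libraries, 1.65 ± 0.43 without Tg 1 and 1.53 ± 0.42 without Tg 1 and FMTg 3. Ccng1, cyclin G1, which brings a phosphatase to Mdm2, had 2352, 3753, 6038, 6107 and 5288 normalised reads in FMTg ovaries, against 3055, 1410.1 and 1778 in Tg ovaries, again with Tg 1 inside the FMTg range and a difference of 1.17 ± 0.36. The remaining arrest genes, among them Btg2, Gadd45a, Plk2 and Sesn1, had differences of -0.36 (Ddit4) to 0.41 (Rprm) and overlapped.

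Genes that lead to cell death made up a list of 16, of which 3 lay above all Tg values and 0 below, against 3.43% and 2.38% of all genes. Its median was 0.46, and 0.31 without FMTg 3. Eda2r (chrX:97333840-97377216), a receptor of the tumour necrosis factor family, had the smallest p of all genes tested. It had 633, 1036, 993, 808 and 833 normalised reads in FMTg ovaries, against 285, 318 and 295 in Tg ovaries. Every FMTg value was above 600 and every Tg value below 320, with means of 861 ± 161 in FMTg ovaries and 299.6 ± 17.00 in Tg ovaries (SD, n = 5 and 3). The difference was 1.48 ± 0.17 (limma adjusted p = 0.183) and ran from 1.39 to 1.59 over the 21 alternatives tried, which left out libraries or changed the scale, filter or model. Eda2r passed in 2 of those, with library weights (limma adjusted p = 0.0294) and in the model of 40 libraries (limma adjusted p = 0.000197). Phlda3, which blocks the survival kinase Akt, had 376, 605, 453, 767 and 922 normalised reads in FMTg ovaries, against 280.0, 292 and 320.4 in Tg ovaries, with a difference of 0.98 ± 0.28. Aen, a nuclease of apoptotic cells, had 629.5, 901, 830.4, 756 and 740.3 normalised reads in FMTg ovaries, against 574, 439.9 and 529 in Tg ovaries, a smaller gap of 0.58 ± 0.15.

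The direct triggers of apoptosis overlapped between the groups. Bbc3, which encodes Puma, had 64.99, 106, 86.1, 101 and 69.2 normalised reads in FMTg ovaries, against 66.6, 33.6 and 51.02 in Tg ovaries, a difference of 0.72 ± 0.29. Pmaip1, which encodes Noxa, had 35.5, 91.3, 344, 57.4 and 81.2 normalised reads in FMTg ovaries, against 66.6, 43.2 and 20.1 in Tg ovaries, where the highest value was that of FMTg 3. Bax, the pore-forming effector, had 198, 333, 379, 215 and 203 normalised reads in FMTg ovaries, against 289, 175 and 209 in Tg ovaries, and its difference was 0.21 ± 0.28. Ei24, a membrane protein of the endoplasmic reticulum, had 931, 1284, 1348, 1489 and 1593 normalised reads in FMTg ovaries, against 1044, 919 and 783 in Tg ovaries, with a difference of 0.52 ± 0.19. Bmf, which encodes a further BH3-only protein and was no member of the list, ran the other way, with 404, 403, 332, 331 and 363 normalised reads in FMTg ovaries, against 638, 661 and 569 in Tg ovaries. Its difference was -0.76 ± 0.14 (limma adjusted p = 0.274).

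**Figure D2:**
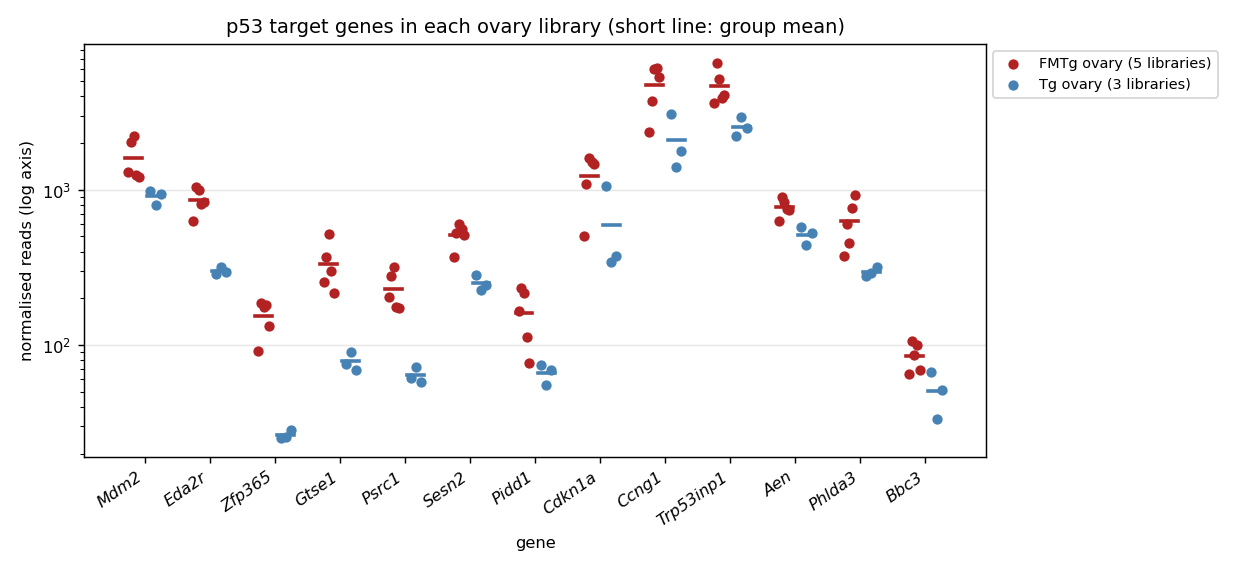
Normalised reads (log axis) of Mdm2 and 12 other p53 target genes in each ovary library, FMTg left of Tg within each gene, with a short line at the group mean. Eda2r, Zfp365, Gtse1 and Psrc1 show no overlap, while Cdkn1a and Ccng1 have a Tg library among the FMTg values.

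The feedback list of 9 genes had 2 above all Tg values, Mdm2 and Trp53inp1, against 3.43% of all genes. Its median was 0.07, with 0.03 to 0.16 over the alternatives. Trp53inp1, a stress-induced partner of p53, had 3639, 6575, 5179, 3871 and 4056 normalised reads in FMTg ovaries, against 2204, 2923 and 2510.2 in Tg ovaries, a difference of 0.85 ± 0.21. Ppm1d, the phosphatase Wip1, which turns p53 signalling off, had 282, 294, 293, 373 and 499 normalised reads in FMTg ovaries, against 249.9, 285 and 263 in Tg ovaries and overlapped. Of 18 genes of repair and metabolism, 4 lay above all Tg values, against 3.43% of all genes, namely Polk, Ckap2, Ercc5 and Xpc. Polk, a polymerase that copies past damaged bases, had 486, 767, 717, 553 and 580.3 normalised reads in FMTg ovaries, against 340.3, 354 and 427 in Tg ovaries, a difference of 0.71 ± 0.18. Ercc5, an endonuclease of nucleotide excision repair, had 687, 913, 795, 568 and 579 normalised reads in FMTg ovaries, against 337, 424 and 480.1 in Tg ovaries, a difference of 0.76 ± 0.20, and Xpc, which recognises the lesions, 535, 567, 437, 561 and 560.0 normalised reads in FMTg ovaries, against 368, 428 and 434 in Tg ovaries, a difference of 0.37 ± 0.14. Ckap2, a spindle protein, had 226, 183, 219, 140.1 and 130.1 normalised reads in FMTg ovaries, against 26.4, 93.6 and 75.3 in Tg ovaries. Its difference of 1.50 ± 0.39 with all libraries was 0.93 without Tg 1 and FMTg 3. Ddb2, another sensor of damage, had 226, 255, 184, 160.3 and 121 normalised reads in FMTg ovaries, against 192, 262 and 248 in Tg ovaries, and Slc19a2, a thiamine transporter, had 353, 559.6, 604, 388 and 282 normalised reads in FMTg ovaries, against 289, 248 and 251 in Tg ovaries. Both of those overlapped.

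None of the 12 genes for secreted and membrane proteins separated the groups, where 3.43% of all genes lay above all Tg values and 2.38% below. Their median was 0.14, with 0.09 to 0.26 over the alternatives. Kitl, the ligand by which granulosa cells support the oocyte receptor Kit, had 1694, 1675, 1191, 1669.9 and 1928 normalised reads in FMTg ovaries, against 757, 1333 and 1004 in Tg ovaries, a difference of 0.68 ± 0.21. Gdf15, a circulating stress cytokine, had 54.5, 103, 99.9, 76.3 and 66.9 normalised reads in FMTg ovaries, against 71.6, 29.6 and 50.2 in Tg ovaries. Tnfrsf18, Lif and Tgfa had differences of 0.79 ± 0.59, 0.30 ± 0.36 and -0.21 ± 0.18.

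Some genes outside the lists also separated the groups. Ano3, a member of the anoctamin family of membrane proteins, had 175, 344, 357, 101 and 203 normalised reads in FMTg ovaries, against 22.6, 16.00 and 39.3 in Tg ovaries, a difference of 2.85 ± 0.44. Lpin1, which makes diacylglycerol from phosphatidate, had 1157, 1374, 1095, 1352 and 1481 normalised reads in FMTg ovaries, against 622, 713 and 705 in Tg ovaries, a difference of 0.91 ± 0.14 (limma adjusted p = 0.246). Dctn1, a subunit of the dynein activator dynactin, had 1462, 1469.7, 1455, 1521 and 1620.2 normalised reads in FMTg ovaries, against 927, 1037 and 831 in Tg ovaries, a difference of 0.69 ± 0.12.

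Luteal and steroidogenic genes had lower values. Of 17 tested, 15 had a lower FMTg mean, against 52.9% of all genes, and 5 lay below all Tg values, against 2.38% of all genes. At an unadjusted p below 0.05, 10 were lower and 0 higher, against 1.93% and 4.43% of all genes. The median was -0.73, and it was -0.66 without Tg 1, -0.82 without FMTg 3 and -0.54 without FMTg 4 and FMTg 5. In the model of 40 libraries the mean effect in the other tissues had a median of -0.58 over the same 17 genes. The median of the ovary effect minus that mean was -0.2, so the list median was lower in the mean of the other tissues as well. Genes were kept by their ovary level alone, and the difference between tissues was not tested for the list. No member passed the limma test over all genes.

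The first steps of progesterone synthesis differed in size from gene to gene. Scarb1, the receptor that takes up cholesterol from high-density lipoprotein, had 1564, 1482, 1797, 1488 and 1958 normalised reads in FMTg ovaries, against 3320.3, 2995 and 2272 in Tg ovaries, a difference of -0.78 ± 0.16 (limma adjusted p = 0.326). Star, which carries cholesterol into mitochondria, had 971, 1056, 1635, 973 and 496 normalised reads in FMTg ovaries, against 1202, 3213 and 1526 in Tg ovaries. FMTg 3 was above 2 of the 3 Tg ovaries, and the difference was -0.91 ± 0.40. Cyp11a1 (chr9:58006411-58027023), which cuts cholesterol to pregnenolone, had 5642, 4131, 8484, 2451 and 2421 normalised reads in FMTg ovaries, against 12349, 14890.4 and 11228 in Tg ovaries. The groups did not overlap and differed by -1.63 ± 0.40 (limma adjusted p = 0.411), with -2.22 to -1.13 over the alternatives. Hsd3b1, which turns pregnenolone into progesterone, had 17708, 16386, 13679, 17404 and 18958 normalised reads in FMTg ovaries, against 15823, 25298 and 13075 in Tg ovaries, and those values overlapped with a difference of -0.05 ± 0.25.

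Akr1c18, Ptgfr and Sfrp4 had the lowest differences of the luteal list. Ptgfr (chr3:151796502-151837630), the receptor of prostaglandin F2-alpha, had 353, 217, 609, 114 and 113 normalised reads in FMTg ovaries, against 1289.7, 3375 and 1729.8 in Tg ovaries. Each Tg value was more than 2 times the highest FMTg value, and the difference was -3.07 ± 0.56 (limma adjusted p = 0.274), with -3.72 to -2.42 over the alternatives. Akr1c18 (chr13:4132615-4150654), the 20-alpha-hydroxysteroid dehydrogenase that inactivates progesterone, had 36.8, 22.4, 194, 42.3 and 82.4 normalised reads in FMTg ovaries, against 898, 6539 and 290.2 in Tg ovaries, a difference of -4.25 ± 0.95. Tg 2 stood far above the other Tg ovaries for it, and the difference ran from -5.26 without Tg 3 to -3.03 without Tg 2. Sfrp4 (chr13:19623104-19632994), a secreted Wnt antagonist of luteal cells, had 399.8, 361, 1098, 257 and 437 normalised reads in FMTg ovaries, against 1512, 8070.2 and 2829.8 in Tg ovaries, a difference of -2.85 ± 0.57, again with Tg 2 highest and with -2.19 when Tg 2 was left out. Other lower members were Hsd17b7, at -1.57 ± 0.45, and Fdx1, the ferredoxin that passes electrons to Cyp11a1, at -1.08 ± 0.41, both with overlap. A list for luteolysis and matrix turnover, which shares Ptgfr and Akr1c18 with the luteal one, had 2 of 18 below all Tg values, against 2.38% of all genes, and these were the shared genes, with a median of -0.16.

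Other genes with small p values and lower FMTg values had varied roles. Gm2a (chr11:55098115-55113029), the lysosomal GM2 activator, had 1048, 1040.1, 2354, 1221 and 1355 normalised reads in FMTg ovaries, against 3188, 3474 and 3576 in Tg ovaries. Its difference was -1.35 ± 0.26 with all libraries and -1.55 ± 0.14 without FMTg 3, where it passed the test (limma adjusted p = 0.0404). Megf10, an engulfment receptor, had 45.3, 42.2, 43.9, 26.6 and 28.7 normalised reads in FMTg ovaries, against 121, 689 and 229 in Tg ovaries, and Epdr1, a lysosomal protein, 288, 362, 409, 236 and 235 normalised reads in FMTg ovaries, against 566, 1113 and 720.2 in Tg ovaries. Entpd1, the ectonucleotidase CD39, had 1044, 1031, 992, 1024 and 884 normalised reads in FMTg ovaries, against 1378, 1581 and 1547 in Tg ovaries, a difference of -0.59 ± 0.11. Slc25a30, Gpc1 and Tpst2, a mitochondrial carrier, a cell-surface proteoglycan and a tyrosine sulphating enzyme, had differences of -0.92 ± 0.18, -1.09 ± 0.22 and -0.69 ± 0.14.

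The theca and cholesterol supply lists had medians near 0. Theca genes had a median of -0.05 over 9 genes, with 0 or above in 7 of 21 alternatives and up to 0.22 without Tg 2. Cyp17a1, the theca enzyme of androgen synthesis, had 148, 129, 25.2, 90.5 and 247 normalised reads in FMTg ovaries, against 7.53, 138 and 8.36 in Tg ovaries, with Tg 2 inside the FMTg range. Lhcgr, the receptor of luteinising hormone, had 411, 489, 652, 284 and 455 normalised reads in FMTg ovaries, against 868, 490.3 and 849 in Tg ovaries, and Mgarp, a mitochondrial protein of steroid-making cells, 938, 567, 701, 440.1 and 352 normalised reads in FMTg ovaries, against 796, 939.8 and 792 in Tg ovaries. Enpep, an aminopeptidase, had 607, 570.0, 6169, 771 and 1088 normalised reads in FMTg ovaries, against 627, 769 and 432 in Tg ovaries. The high value was that of FMTg 3, the library with the most intestinal and kidney reads. Insl3, a theca peptide hormone, had 0.66, 12.1, 6.50, 15.2 and 4.78 normalised reads in FMTg ovaries, against 7.53, 12.8 and 3.35 in Tg ovaries. Cholesterol supply genes had a median of -0.03, with 0 or above in 10 of 21 alternatives. Within that list Lipe, the hormone-sensitive lipase that fat cells also use, had 849, 878, 812, 1545 and 2319 normalised reads in FMTg ovaries, against 519.9, 635 and 591 in Tg ovaries. Dhcr7, the last enzyme of cholesterol synthesis, had 391, 475, 436, 408 and 299.7 normalised reads in FMTg ovaries, against 658, 561 and 506 in Tg ovaries, and Msmo1, an earlier enzyme of that synthesis, overlapped with a difference of 0.26 ± 0.18.

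All 19 granulosa genes had a higher FMTg mean, against 47.1% of all genes, with a median of 0.61. No member separated the groups, where 3.43% of all genes lay above all Tg values and 2.38% below. Without Tg 1 the granulosa median was 0.02. Inhba, which encodes a subunit of activin, had 2441, 498, 556, 1491 and 1741 normalised reads in FMTg ovaries, against 162, 930.2 and 225 in Tg ovaries, with Tg 2 inside the FMTg range. Nap1l5 and Fst, the second of which encodes the activin antagonist follistatin, had differences of 1.41 ± 0.62 and 0.91 ± 0.45. Fshr, the receptor of follicle-stimulating hormone, had 127, 55.96, 23.6, 41.4 and 41.8 normalised reads in FMTg ovaries, against 18.8, 91.98 and 25.1 in Tg ovaries, and Amh, the anti-Mullerian hormone of growing follicles, 1656, 552, 242, 352 and 739 normalised reads in FMTg ovaries, against 255, 786 and 649.9 in Tg ovaries. Oocyte genes had a similar shift. Of 30 tested, 26 had a higher FMTg mean, none was above all Tg values and 1, Khdc3, was below, against 47.1%, 3.43% and 2.38% of all genes. Their median was 0.69, and 0.09 without Tg 1. Nlrp5, which encodes a maternal protein that embryos need, had 646, 292, 158, 289 and 450.1 normalised reads in FMTg ovaries, against 28.9, 229 and 155 in Tg ovaries. H1foo, the linker histone of oocytes, had 259, 191, 66.6, 193 and 247 normalised reads in FMTg ovaries, against 10.1, 117 and 76.1 in Tg ovaries. Bmp15, a growth factor that pairs with Gdf9, had 469, 245, 109, 219 and 296 normalised reads in FMTg ovaries, against 80.4, 318 and 189.9 in Tg ovaries. Tg 1 was the lowest library for Nlrp5, H1foo and Bmp15, and Tg 2 was within the FMTg range for each. Obox5, Npm2 and Zp1 had differences of 1.04 ± 0.42, 0.88 ± 0.43 and 0.97 ± 0.60.

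Genes of the ovulatory response had a median of -0.35 over 16 genes that was -0.22 without Tg 1, with 3 below all Tg values, against 2.38% of all genes, and 0 above, against 3.43%. Pgr, the progesterone receptor that granulosa cells need to release the oocyte, had 2528, 2847, 2071, 1495 and 1266 normalised reads in FMTg ovaries, against 2926, 3284 and 4448 in Tg ovaries, a difference of -0.84 ± 0.28. Runx2, a transcription factor of ovulating follicles, had 90.6, 164, 413, 38.6 and 48.95 normalised reads in FMTg ovaries, against 909, 509 and 433 in Tg ovaries, a difference of -2.41 ± 0.68. Cited4, a transcriptional coactivator, had 196, 213, 228, 259 and 154 normalised reads in FMTg ovaries, against 370.5, 326 and 330.4 in Tg ovaries, a difference of -0.71 ± 0.19. Ptgs2, the prostaglandin synthase of ovulation, had 101, 115, 121, 192 and 76.4 normalised reads in FMTg ovaries, against 151, 148 and 199 in Tg ovaries, and Areg and Ereg, growth factors that relay the hormone surge, differed by 0.17 ± 0.52 and -0.12 ± 0.55. All 3 of those overlapped. Il6 had 3.28, 6.03, 4.06, 17.5 and 0 normalised reads in FMTg ovaries, against 22.6, 11.2 and 24.3 in Tg ovaries.

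**Figure D3:**
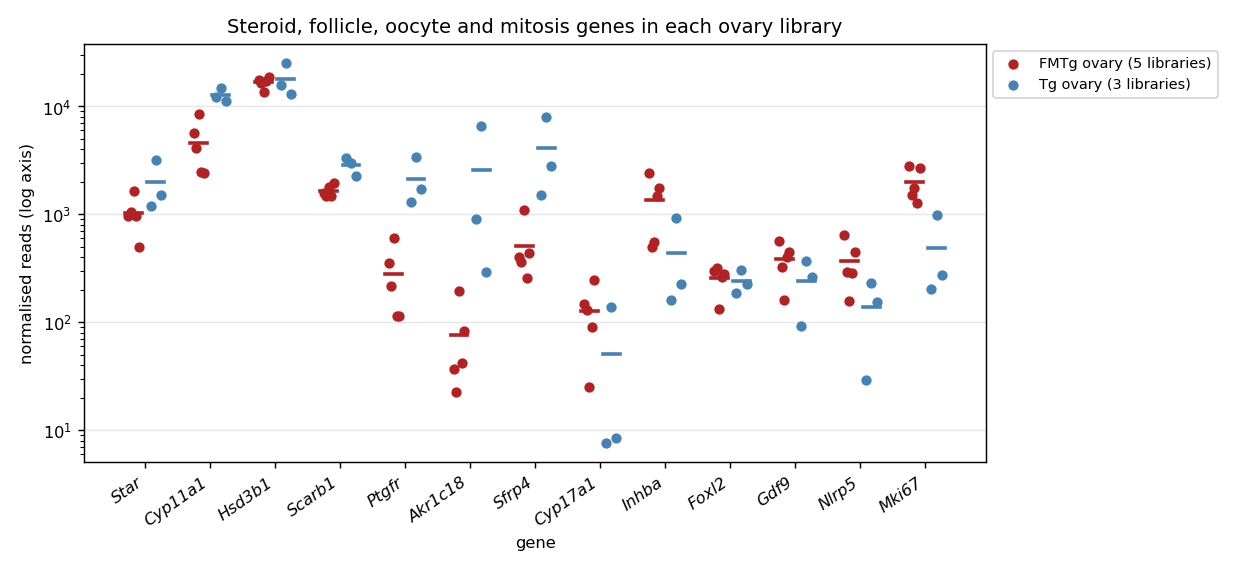
Normalised reads (log axis) of 13 steroid, follicle, oocyte and mitosis genes in each ovary library, FMTg left of Tg within each gene, with a short line at the group mean. Cyp11a1, Scarb1, Ptgfr, Akr1c18 and Sfrp4 lie lower in FMTg without overlap, and Foxl2, Gdf9 and Nlrp5 overlap.

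Mitosis genes were higher in mean in FMTg ovaries for 27 of 27, against 47.1% of all genes, and 3, Mki67, Tpx2 and Prc1, lay above all Tg values, against 3.43% of all genes, with a median of 0.81. That median was 0.45 without Tg 1, and 13 members had an unadjusted p below 0.05 with all libraries, where 4.43% of all genes did, and 6 without Tg 1, where 2.35% did. Mki67, the Ki-67 protein that coats mitotic chromosomes, had 2827, 1502, 1769.7, 1262 and 2714 normalised reads in FMTg ovaries, against 203, 992 and 274 in Tg ovaries. The lowest FMTg value was above the highest Tg value, and the difference was 2.31 ± 0.49 (limma adjusted p = 0.326). Tpx2, which builds the spindle, had 551, 273, 274, 336 and 697 normalised reads in FMTg ovaries, against 48.98, 236 and 137 in Tg ovaries, a difference of 1.70 ± 0.49. Top2a, which untangles replicated DNA, had 2709.8, 1510.2, 1807, 861 and 1752 normalised reads in FMTg ovaries, against 414, 1221 and 760.4 in Tg ovaries, with Tg 2 inside the FMTg range. Cenpe and Cenpf, kinetochore proteins, had differences of 1.67 ± 0.47 and 1.88 ± 0.54 and overlapped. DNA replication genes had a higher FMTg mean for 22 of 23, against 47.1% of all genes, with none above all Tg values, against 3.43% of all genes. Their median was 0.39, and 0.26 without Tg 1 and FMTg 3. In that list Mcm2, a subunit of the replicative helicase, had 722, 580.3, 476, 610.1 and 724 normalised reads in FMTg ovaries, against 359, 513 and 382 in Tg ovaries, and Mcm3, Mcm4 and Mcm5 differed by 0.46 ± 0.22, 0.46 ± 0.20 and 0.55 ± 0.20.

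Linker histones close the turn of DNA on the nucleosome, and 1 of them, Hist1h1e, was among the 10 named genes with the smallest p and higher FMTg values. This group was picked after its values were seen, and its copies are alike enough to share reads, so single members are uncertain. Hist1h1e (chr13:23620629-23622558) had 719, 884, 743, 689.6 and 934 normalised reads in FMTg ovaries, against 188, 368 and 144 in Tg ovaries, a difference of 1.84 ± 0.27 (limma adjusted p = 0.246). Without Tg 2, the Tg ovary with the highest value, it passed the test (limma adjusted p = 0.0311), as did Hist1h1c and Hist1h1d. Of 7 linker histones, 5 lay above all Tg values, namely Hist1h1a, Hist1h1c, Hist1h1d, Hist1h1e and H1f0. Of 60 genes of the histone clusters, Hist1h1 genes included, 13 did, against 3.43% of all genes, with a median of 0.69 that was 0.51 without Tg 1. Among the other named genes above all Tg values, Smc1a, a subunit of cohesin, had 1524, 1354, 1277, 1711 and 1732 normalised reads in FMTg ovaries, against 702, 901 and 637 in Tg ovaries, a difference of 1.02 ± 0.16. Tpr, of the nuclear pore basket, had 3559.9, 2937, 2967, 3778 and 4135 normalised reads in FMTg ovaries, against 1723, 1972 and 1545 in Tg ovaries, a difference of 0.98 ± 0.16.

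Base composition moved with these values. Transcripts rich in the purines A and G had higher FMTg values, and the 60 bases of coding sequence with the most purines in each of 4 transcripts show how far such runs go. They are read from the GENCODE M21 transcripts on GRCm38, in the sense of the gene, with the longest unbroken purine run in capitals, all from genes with higher FMTg values.
Bod1l, chr5:41832365-41832424, minus strand: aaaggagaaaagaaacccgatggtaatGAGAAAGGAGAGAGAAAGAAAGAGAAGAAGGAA
Smc1a, chrX:152026664-152026723, plus strand: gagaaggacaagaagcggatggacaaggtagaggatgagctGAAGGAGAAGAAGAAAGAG
Tpr, chr1:150422596-150422655, plus strand: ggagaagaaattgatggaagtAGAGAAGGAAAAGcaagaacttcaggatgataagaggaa
Hist1h1e, chr13:23621946-23622005, minus strand: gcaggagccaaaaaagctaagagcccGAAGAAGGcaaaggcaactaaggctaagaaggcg
The window held 54 purines in Bod1l, 52 in Smc1a, 49 in Tpr and 45 in Hist1h1e. That of Scarb1, which had lower FMTg values, held 38, and its longest run was 8 bases, as in Hist1h1e. Over the whole transcript the A+G share was 58.6% for Bod1l, 58.1% for Smc1a, 58.9% for Tpr and 54.5% for Hist1h1e. It was 48.1% for Gm2a, which had lower FMTg values, and the median of all genes was 50.6%.

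Across 15582 genes with a coding transcript, 94.5% of those tested, the log2 difference and the A+G share had a Spearman correlation of 0.22, given as a description over genes that share their 8 libraries. Genes were divided into 10 bins of equal size by A+G share. In the bin with the highest share, the median difference was 0.22 and 14.7% lay above all Tg values. In the bin with the lowest share, the median was -0.12 and 1.03% did. The deviation of the highest bin from the mean of the 8 libraries was 0.19, 0.10, 0.06, 0 and 0.11 in FMTg ovaries, against -0.30, -0.08 and -0.04 in Tg ovaries. Tg 1 was farthest from the others, and all 3 Tg values were below all FMTg values. In the other tissues the median difference of the same bin was 0.04 in kidney, -0.03 in small intestine, -0.05 in heart and -0.13 in pancreas. With genes centred within 20 bins of A+G share, the difference was 0.72 for Smc1a, 0.68 for Tpr, 0.74 for Bod1l and 1.68 for Hist1h1e. For the 14 p53 targets above all Tg values the median A+G share was 51.1%. Centring gave 1.57 for Eda2r, 2.31 for Zfp365 and 1.98 for Gtse1, and -3.01 for Ptgfr. The part of base composition in the differences of Smc1a, Tpr, Bod1l and Hist1h1e was otherwise not tested.

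**Figure D4:**
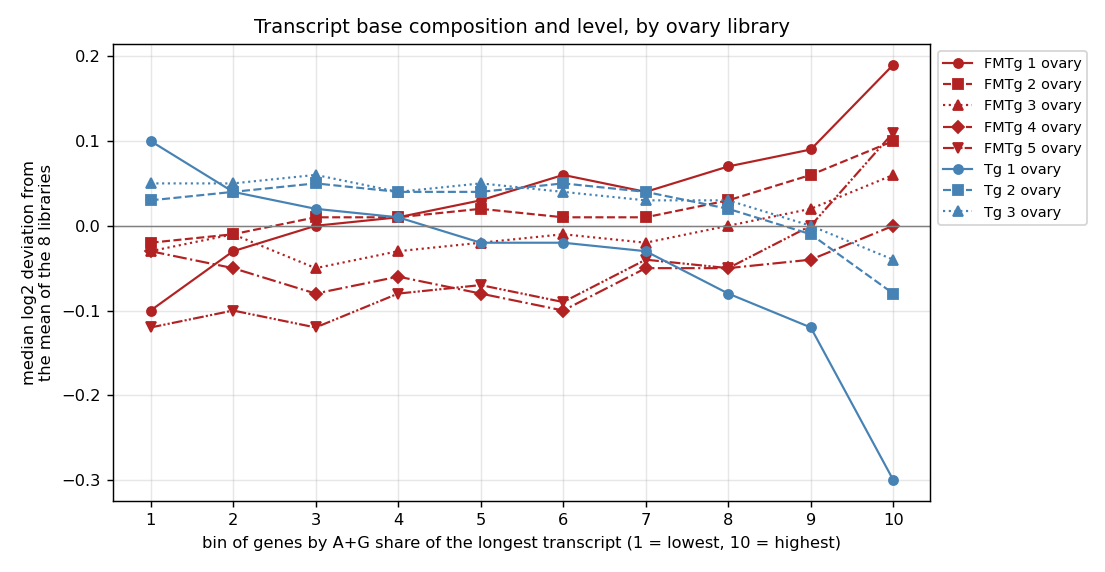
Median log2 deviation of each ovary library from the mean of the 8 libraries, for genes in 10 bins by A+G share of the transcript, with FMTg lines listed first. In the highest bin the FMTg libraries sit between 0 and 0.19 and the Tg libraries between -0.30 and -0.04.

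Fat genes had large gaps. All 10 adipocyte genes had a higher FMTg mean, against 47.1% of all genes, and 5 lay above all Tg values, against 3.43%, namely Adipoq, Cidec, Lep, Plin4 and Car3, with a median of 2.40 that was 1.28 without FMTg 4 and FMTg 5. Adipoq, the hormone adiponectin, had 644, 420.2, 228, 2929.6 and 3228 normalised reads in FMTg ovaries, against 75.3, 155 and 192 in Tg ovaries, a difference of 2.72 ± 0.86. Cidec, a lipid droplet protein, had 736, 803, 582, 4380.0 and 4212 normalised reads in FMTg ovaries, against 118, 219 and 280.2 in Tg ovaries, and Car3, an abundant carbonic anhydrase of fat and muscle, 2561, 1155, 569, 8158 and 9625 normalised reads in FMTg ovaries, against 290.1, 330.3 and 373 in Tg ovaries. Plin1 and Plin4, which coat lipid droplets, had differences of 1.76 ± 0.59 and 1.82 ± 0.59. FMTg 4 and FMTg 5 were the highest libraries for Adipoq, Cidec and Car3, and the other FMTg values still exceeded the Tg values.

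In the cytokine and chemokine list 14 of 19 had a lower FMTg mean, against 52.9% of all genes, with a median of -0.42, or -0.79 without FMTg 4 and FMTg 5. None lay below all Tg values, against 2.38% of all genes. Cxcl2, which attracts neutrophils, had 11.2, 19.8, 22.8, 67.5 and 28.7 normalised reads in FMTg ovaries, against 285, 134 and 34.3 in Tg ovaries, and Ccl8, a monocyte chemokine, 42.7, 57.7, 109, 79.5 and 63.3 normalised reads in FMTg ovaries, against 187, 90.4 and 137 in Tg ovaries. Neutrophil genes had a median of -1.16 over 9 genes, and -0.77 without Tg 1 and -1.76 without FMTg 4 and FMTg 5. In the model of 40 libraries the mean effect in the other tissues had a median of -1.01 over these genes. The median of the ovary effect minus that mean was -0.07, so this list's median was lower in the mean of the other tissues as well. That difference between tissues was not tested for the list. Il1b, the cytokine interleukin-1 beta, had 26.3, 32.7, 41.4, 21.6 and 28.7 normalised reads in FMTg ovaries, against 294, 161 and 40.1 in Tg ovaries, and Retnlg, a neutrophil granule protein, 11.2, 20.7, 30.9, 45.5 and 3.58 normalised reads in FMTg ovaries, against 219, 55.99 and 50.2 in Tg ovaries. S100a8 and S100a9, the subunits of calprotectin, were highest in Tg 1, at 648 and 1057 normalised reads. The interferon list had 2 of 16 below all Tg values, against 2.38% of all genes, namely Bst2, a tether of budding virus, with 563, 553, 529.8, 386 and 478 normalised reads in FMTg ovaries, against 709.5, 857 and 809.7 in Tg ovaries, and Oas2, a sensor of double-stranded RNA, with 93.2, 121, 112, 85.9 and 150.4 normalised reads in FMTg ovaries, against 187, 174 and 181 in Tg ovaries. Its median was -0.14. Among immediate early genes Fosl2, a partner of Jun, had 4545, 4206, 3838, 2987 and 2403 normalised reads in FMTg ovaries, against 4852, 5646 and 5158 in Tg ovaries, a difference of -0.57 ± 0.22, and that list's median was -0.10.

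**Figure D5:**
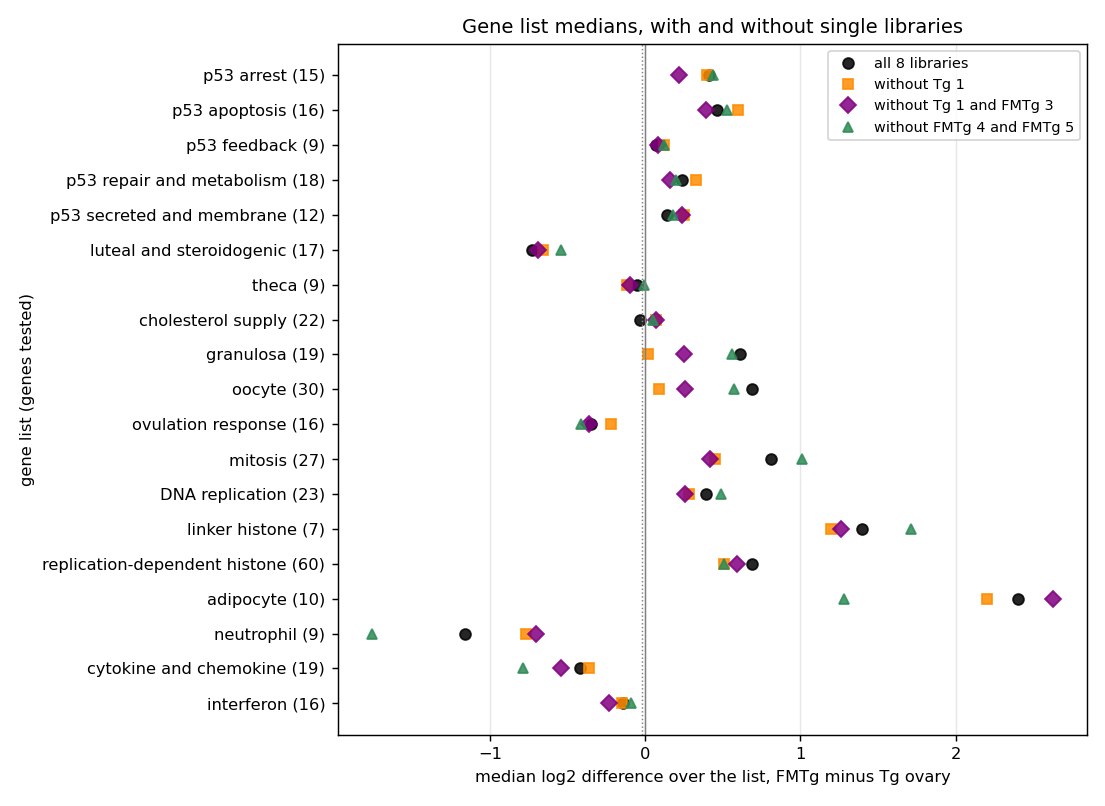
Median log2 difference (FMTg minus Tg) of 19 gene lists with all 8 libraries and with 1 or 2 libraries left out, where the number of genes tested stands in brackets and the dotted line is the median of all genes, -0.02. The luteal median stays between -0.73 and -0.54 in the 4 settings drawn, while the granulosa and oocyte medians drop to 0.02 and 0.09 without Tg 1.

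The ovary was then set against the mean of pancreas, kidney, heart and small intestine in 1 limma model of all 40 libraries with the mouse as a random block. The p values of that model rest on a single spread per gene over all tissues, not on that of the ovaries. The effect of genotype in the ovary differed from the mean effect of the other tissues for 21 genes, 17 with a higher difference (0.103% of genes tested) and 4 with a lower one (0.0243%). Of the 4, 2 were listed p53 targets. In that model Eda2r differed by 1.51 in the ovary and by a mean of 2.49 ± 0.13 in the other tissues, and the contrast was -0.98 ± 0.20 (limma adjusted p = 0.0402). Phlda3 differed by 1.03 in the ovary and 2.38 elsewhere, a contrast of -1.34 ± 0.29 (limma adjusted p = 0.0487). Ddit4l, which inhibits mTORC1, had 510.1, 773, 492, 430.5 and 344 normalised reads in FMTg ovaries, against 380.5, 815 and 493 in Tg ovaries. Its mean difference elsewhere was 1.85, and the contrast was -1.97 ± 0.36 (limma adjusted p = 0.0317). Fam110a, a centrosome protein, had a contrast of -1.10 (limma adjusted p = 0.0487).

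The contrast for Mdm2 was -0.65 ± 0.24 (limma adjusted p = 0.605), and for Zfp365 it was 0.07 ± 0.77. Against kidney alone, 6 of 16486 genes tested differed, all with a lower effect in the ovary, namely Eda2r, Gtse1, Plk2, Trp53inp1, Aen and Inka2. The Gtse1 contrast there was -2.94 (limma adjusted p = 0.00344) and that of Plk2, a kinase of the stress response, -2.06 (limma adjusted p = 0.00727).

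Among the 17 genes with a higher difference in the ovary, Bod1l, which protects stalled replication forks in human cells, had 2040.2, 1736, 1480.5, 1618 and 1847 normalised reads in FMTg ovaries, against 707, 1151 and 724 in Tg ovaries, and the contrast was 1.00 ± 0.19 (limma adjusted p = 0.0317). Ctcf, which sets chromatin loops, had 1304, 1170.1, 1035, 1186 and 1626 normalised reads in FMTg ovaries, against 722, 979 and 838 in Tg ovaries, and Rrp1, a ribosome assembly factor, 1424, 1209, 1122, 1530.3 and 1681 normalised reads in FMTg ovaries, against 715, 824 and 865 in Tg ovaries. Scaf11, a splicing factor, and Apc, a scaffold of Wnt signalling, had contrasts of 0.68 and 0.50. Of the 16 with a coding transcript, 10 were in the bin richest in A and G. Without ovary Tg 1, 1 gene differed, Ddit4l, and the other 20 calls were lost. Without FMTg 4 and FMTg 5 of the ovary 0 differed, and without the mouse block 0 did.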

How the data were processed

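RNA of 40 libraries was sequenced by the submitters, who aligned reads with STAR 2.6.0b to GRCm38 and used DESeq2, as the submitters' processing notes name them. The read counter, annotation release and strand setting are not given in the sources used here, so overlapping antisense genes and near-identical copies may share reads. For 18024 genes the authors deposited log2 values after a variance-stabilising transformation. Whole reads were recovered by inverting that scale, where 100% of values came out whole within 0.01. Tests covered genes whose ovary mean exceeded the lowest value of the table by 1 or more.

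Libraries were grouped by genotype label and compared with limma 3.58.1 in R 4.3.3, with a mean-variance trend, and the contrast with other tissues used the mouse as a random block (correlation 0.242). The fits were tested on simulated data. Precision is set by 5 and 3 libraries. Genes named are Mdm2 and Trp53, the 10 with the smallest p per direction without overlap (no Gm or Rik symbols, no acinar genes), for each list up to 4 members by p plus the first 3 of the main ones, and 5 per direction of the contrast. The members and lists were chosen with earlier results of these data known, and the lists of intestinal, kidney, heart and histone genes after values of the ovary were seen. Btg2, Gadd45a, Sesn1, Ddit4, Rprm, Pidd1, Plk2, Inka2, Hsd17b7, Fdx1, Khdc3, Lep, Prc1 and linker histones other than Hist1h1e fall outside that rule and were named after their values were seen. Positions and transcripts are those of GENCODE M21, and start-site windows those of RefSeq. Replicate numbers name different mice in the 2 groups and do not pair them.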

Additional observations from a re-analysis of the deposited data

Results flagged for a closer look

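For 6 of 169 named genes (3.55%) and 1 of 6 summed lists, 1 FMTg ovary lay far from the other 4 by Dixon's test. Chance alone gives about 1 in 20, so the count for genes is no more than chance gives. FMTg 3 was low for Xpc (437.2 normalised reads), Foxl2 (133.3) and H1foo (66.6), and high for Enpep (6168.9) and for the summed intestinal epithelium genes (162847.7). FMTg 5 was high for Ifit2, an interferon-induced gene (232.8), and low for Sec61b, a subunit of the secretory translocon (237.6).

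The ovary effect differed from the mean effect of the other 4 tissues, by a limma test of the difference itself, for Scaf11 (0.68), Rrp1 (0.75), Bod1l (1.00), Apc (0.50) and Ctcf (0.58), which were higher, and for Eda2r (-0.98), Phlda3 (-1.34), Ddit4l (-1.97) and Fam110a (-1.10), which were lower, on the log2 scale.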

How the results depend on the processing

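Without a replicate, genes called in the ovary numbered 0 to 3, namely Gm2a without FMTg 3 and Hist1h1e, Hist1h1c and Hist1h1d without Tg 2. With library weights 17 were called (12 higher, 5 lower) and in 1 model of 40 libraries 69 (62 higher, 7 lower), of which 4 were in both sets. The other alternatives, voom, other filters, log2 of reads plus 1, median centring, no trend, size factors without acinar genes and bins of A+G share among them, called 0. The last 2 and the joint omission of Tg 1 and FMTg 3 were chosen after seeing the data. The replicate block, which drops FMTg 4 and FMTg 5 since no Tg library shares their number, called 0. Deviations of same-numbered libraries from their group means had correlations of -0.484, -0.059 and -0.587. Such correlations, over genes that share their libraries, do not decide whether same-numbered libraries belong together. The numbers name different mice in the 2 groups. For the contrast with other tissues, 21 genes became 45 with the replicate block, 17 without the trend, 6 against kidney alone, 1 without Tg replicate 1, and 0 without FMTg 4 and FMTg 5 or without the mouse block. Mdm2 alone differed by 0.64 to 0.85 when a replicate was left out, with exact permutation p values of 0.0286 to 0.0952. Of 169 named genes, 23 took the other sign in 1 or more alternatives, and for 20 of these the difference with all libraries was smaller than its standard error. The other 3 were Ctrb1 at 0.13 and Prss2 at 0.22 with library weights, and Cd163 at -0.22 with the replicate block and at -0.22 without FMTg 4 and FMTg 5. List medians kept 1 sign in all alternatives for 22 of 37 lists. Depth of 8.97 M reads in FMTg 5 limits genes with few reads. The causes were not tested.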

Other observations

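Ciliated cells of the oviduct lie close to the ovary, and their genes had a median difference of 0.43 over 13 genes, 0.07 without Tg 1. No gene of that list lay above all Tg values, against 3.43% of all genes. Foxj1, the regulator of motile cilia, had 1025, 754, 544, 2146 and 1087 normalised reads in FMTg ovaries, against 256, 378 and 1008 in Tg ovaries, and Rsph1, Tekt1 and Cfap126, parts of the cilium, had differences of 1.34 ± 0.44, 1.23 ± 0.43 and 1.32 ± 0.54. Stroma and smooth muscle genes had a median of -0.03, with 1 of 16 below all Tg values, against 2.38% of all genes. That gene was Pdgfra, a receptor of stromal fibroblasts, with 2833, 2700.0, 2497, 3282 and 2784 normalised reads in FMTg ovaries, against 3305, 3798 and 4021 in Tg ovaries. Col1a1, a chain of collagen I, had 11852, 16245, 11455, 10307 and 9999 normalised reads in FMTg ovaries, against 15789, 17867 and 21388 in Tg ovaries, and Myh11, the myosin of smooth muscle, had 8224, 7767, 7265, 7499 and 6269.5 normalised reads in FMTg ovaries, against 3217, 6636 and 5551 in Tg ovaries, so that 4 of 5 FMTg ovaries had more Myh11 than every Tg ovary.

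Lists of surface epithelium, blood vessel, lymphatic, erythroid, macrophage, T and NK cell and B cell genes had medians of 0.08, 0.13, 0.39, 0.50, 0.21, -0.02 and 0.22. Across these 7 lists, of 12, 12, 6, 7, 14, 13 and 8 genes tested, 1 gene separated the groups. Of all genes, 3.43% lay above all Tg values and 2.38% below, so this count is no more than the share over all genes gives. That gene was Marco, a scavenger receptor of macrophages with few reads, with 3.28, 3.44, 5.69, 4.59 and 11.9 normalised reads in FMTg ovaries, against 2.51, 0 and 2.51 in Tg ovaries. B cell genes summed to 4951.7 normalised reads in FMTg 3, 149.2 to 333.5 in the other FMTg ovaries and 335.4 to 552.7 in Tg ovaries. T and NK cell genes summed to 906.0, 123.0 to 132.8 and 118.8 to 214.4 in the same order. Without FMTg 3 the B cell median was -0.02 and the T and NK cell median -0.54. Chaperones of the endoplasmic reticulum had a median of 0.17, and -0.10 without FMTg 4 and FMTg 5. Calr, calreticulin, had 6740.3, 7402, 7573, 18814 and 18474 normalised reads in FMTg ovaries, against 6014, 5614 and 6779.6 in Tg ovaries, and Hsp90b1, an HSP90 of the secretory pathway, 7629, 6962, 8357, 12668 and 12592 normalised reads in FMTg ovaries, against 6751, 5999 and 7972 in Tg ovaries. FMTg 4 and FMTg 5 were the highest libraries for both. The integrated stress response list had a median of 0.04, with Vldlr, a lipoprotein receptor, at 881, 886, 793, 475 and 572 normalised reads in FMTg ovaries, against 929, 924 and 1118 in Tg ovaries, a difference of -0.49 ± 0.23. Acinar genes had a median of -3.20 and islet hormone genes -1.34, and without Tg 1 these were -0.81 and 0.71.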
